A study of Anas platyrhynchos x Cairina moschata with 137 samples.

Results

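The liver of the mule duck, the sterile hybrid of common and Muscovy ducks that is raised for foie gras, was compared between embryonic day 12 (E12) and embryonic day 20 (E20) of incubation. The animals were those labelled with these stages, 19 at E12 and 20 at E20, which made 39 of the 137 animals of the series, and the 20 animals of E16 were read as the midpoint. Each animal gave 1 liver at 1 stage, and all came from untreated eggs of mothers of a single genotype (H85) that shared the same incubation, so the labels and methods name no difference between the groups other than stage. The mRNA was measured by quantitative PCR with the EvaGreen dye on microfluidic arrays, for 50 target genes of liver development, carbohydrate metabolism, lipid metabolism and cellular stress and for 5 references. No array is given for any animal, so arrays were not compared.

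The embryonic liver of birds grows from a bud of endoderm and is at first a tissue of dividing hepatoblasts and endothelium, which later takes up the work of the hepatocyte. The embryo lives on yolk lipid and on the small store of glucose in the egg, which it burns by beta-oxidation and glycolysis, while the synthesis of fat from dietary sugar is known to start with the first meals. The gene panel was chosen to follow growth factors and their receptors (HGF, IGF, FGFR2), transcription factors of the hepatocyte (PROX1, GATA6, NR5A2), glucose transporters and glycolytic enzymes (GLUT1, GLUT2, HK1, GAPDH), enzymes of fat synthesis and oxidation (FASN, SCD1, ACLY, CPT1A) and chaperones and detoxifying enzymes (HSP90AA1, CYP2E1, GSTT1). In the deposited tables each gene is a number, and no name stands beside it in the files used here. The genes are therefore called by their row, no value is assigned to a pathway, and the tissue label could not be checked against liver markers. In whole liver, fewer cells of a type and less mRNA per cell cannot be told apart.

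The relative expression of a gene was its quantity, taken from its threshold cycle (Ct), over the geometric mean of the 5 references. Each Ct enters as the distance from the mean of its row across the 137 animals, so that 1 stands for an average animal. It compares a gene between stages and not 1 gene with another. Between E12 and E20, 13 of the 50 genes were higher at E20 and 20 were lower, 26.0% and 40.0% of the genes tested and 66.0% in all, and 17 did not pass the test (limma on log2 relative expression, adjusted p under 0.05 by Benjamini-Hochberg over the 50 genes). On the log2 scale, where 1 is a doubling, the changes ran from -1.99 to 2.63 around a median of -0.11, with an interquartile range from -0.51 to 0.48. Changes of at least 1 were called in 8 genes, 5 that rose and 3 that fell. The median called rise was 0.88 and the median called fall was -0.58, with the smallest called changes at 0.19 and -0.29. The standard error of a change had a median of 0.13 and ran from 0.07 to 0.65. In the 17 genes that did not pass, the estimates lay between -0.45 and 0.51, and in 8 of them the 95% confidence interval stayed within 0.5 of 0. The statistical procedure of the methods, run on linear values over the 7 stages with correction for 21 pairs of stages, called 12 genes between E12 and E20, 24.0%, with 6 higher and 6 lower, and all 12 were among the 33 called on the log2 scale.

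**Figure D1:**
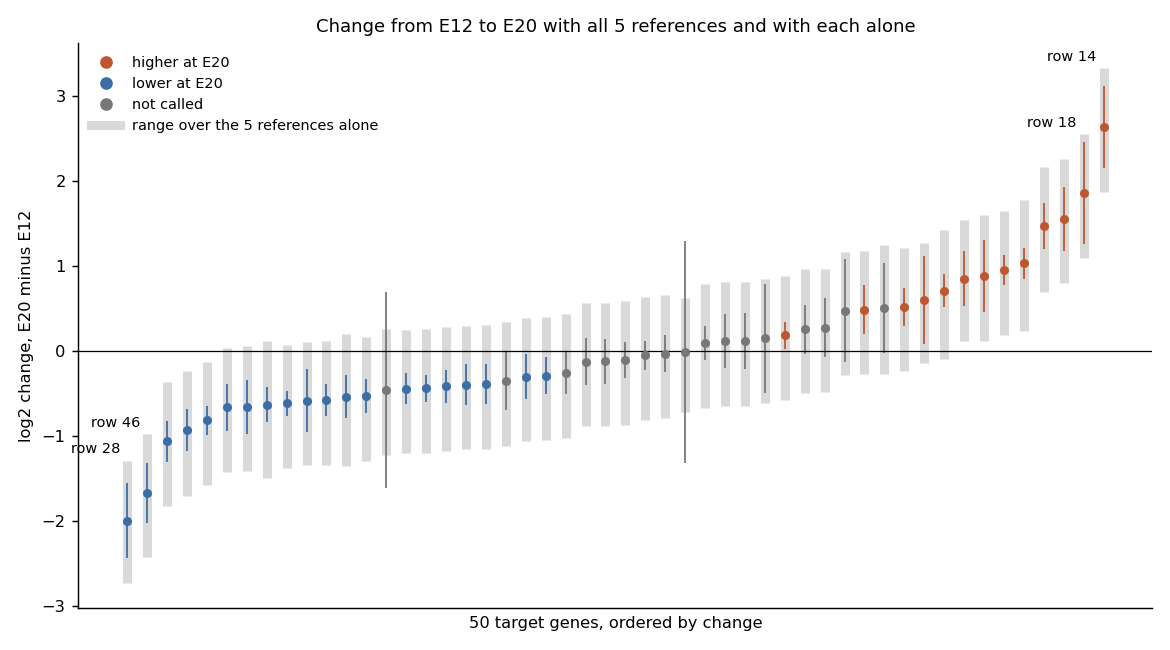
Change in relative expression from E12 to E20 (log2, E20 minus E12) for each of the 50 target genes in order of change. Points are estimates with all 5 references, lines are 95% confidence intervals and grey bars span the estimates with each of the 5 references alone. The genes in rows 14 and 18 stay above 0 and those in rows 28 and 46 below 0 over the whole grey bar, whereas 37 of the 50 bars cross 0.

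The references differed between the stages themselves, and the numbers of rises and falls differed with the reference used. A later Ct means less template. The reference in row 51 had a mean Ct of 14.4 ± 0.40 at E12 (SD, n = 19), 14.5 ± 0.37 at E16 (SD, n = 20) and 15.5 ± 0.78 at E20 (SD, n = 20). Single animals ran from 14.0 to 15.4 at E12, with a median of 14.3, and from 14.1 to 17.1 at E20, with a median of 15.4. The stages overlapped, with the latest animals all at E20. The change was 1.08 cycles (2-sided permutation test with 100000 resamples, adjusted p = 3.33e-05 over the 5 references). The references in rows 52 and 53 moved the same way, by 1.14 and 1.43 cycles (adjusted p = 2.5e-05 for each in the same test). The reference in row 54 had 10.2 ± 0.21 cycles at E12 and 10.2 ± 0.31 at E20, a change of -0.02 (permutation test, adjusted p = 0.807). The reference in row 55 had 17.4 ± 0.39 cycles at E12 and 17.4 ± 0.81 at E20, a change of 0.06 (permutation test, adjusted p = 0.807). So 3 references were later at E20 by more than a cycle, and for the other 2 no change was called. These means pool all E20 animals, and the late values gathered in part of them, as described below. For rows 54 and 55 an equal mean therefore does not show that single E20 animals matched those of E12.

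**Figure D2:**
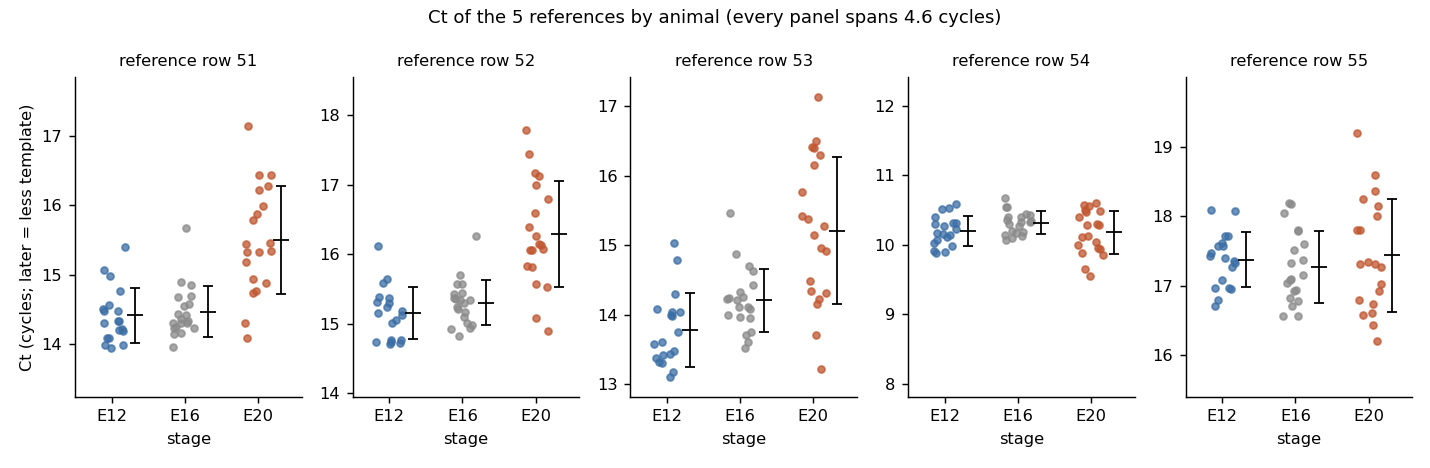
Ct of each of the 5 references (cycles, with later meaning less template) in every animal at E12, E16 and E20. Each point is an animal and the bars are the mean and SD of the stage. Rows 51, 52 and 53 are later at E20. Rows 54 and 55 have about the same mean as at E12 when all E20 animals are pooled. The E20 animals are the most scattered in every panel.

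The methods list the references as SDHA and PDHA1, enzymes of mitochondrial energy metabolism, the glucose transporter GLUT8, the RNA polymerase gene POL2, and luciferase, an RNA added from outside to every reverse transcription, but which of these stands in which row is not given in the files used here. Normalized to row 53 by itself, 31 genes were higher at E20 and 3 lower, and the median change of the 50 genes was 0.58. Normalized to row 54 by itself, 4 were higher and 33 lower, with a median of -0.87. Row 55 gave 6 higher, 32 lower and a median of -0.79, row 51 gave 23 higher, 9 lower and 0.23, and row 52 gave 23 higher, 6 lower and 0.28. For 37 of the 50 genes the estimate changed its sign between references, and 16 genes were called higher with 1 reference and lower with another. The direction held with each of the 5 references in 13 genes, 8 above 0 and 5 below, and was called each time in 4 that rose and 3 that fell. The Ct of the target genes without any reference was later at E20 in 41 genes and earlier in 9, with a median of 0.85 cycles.

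A choice of reference adds the same amount to every gene of an animal, so the distance between the changes of genes measured in the same animals does not depend on it. When the median Ct of the 23 target genes with a value in every E12, E16 and E20 animal took the place of the references, 12 genes were higher and 19 lower at E20, and 30 of the 33 calls were the same. This setting was chosen after seeing the data. It takes its reference from the target genes, which sets their typical change near 0. With the deposited ratios the median change was already -0.11, so the similar counts cannot decide the balance of rises and falls. Relative to the median change of the 50 genes, the gene in row 14 rose by 2.75 and the gene in row 18 by 1.97 on the log2 scale, while the changes of the genes in rows 28 and 46 were -1.88 and -1.55. The value for row 28 rests on the 15 of 20 E20 animals with a deposited ratio.

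The gene in row 14 had the largest rise, and its level was higher at each of the 3 stages than at the one before. Its relative expression ran from 0.068 to 0.629 at E12, with a median of 0.239 over the 18 animals with a value. At E16 it ran from 0.273 to 1.09, with a median of 0.493 over 20 animals. At E20 it ran from 0.726 to 3.06, with a median of 1.46 over 19 animals. All 19 E20 animals lay above all E12 animals, and the E20 animal left without a deposited ratio lay higher still, at 4.43 when computed from its Ct. A separation of this kind was found in 3 of the 50 genes, 6.0%, each time with E20 above E12, and no gene had all E20 animals below E12. This count used deposited ratios only. Rows 8 and 10 are among the 3, with ratios in 16 and 18 animals at E12 and in 17 and 20 at E20. With missing values computed from the Ct, their log2 SD at E12 rose from 0.16 to 0.33 and from 0.36 to 0.52. Whether they still separate with those values was not checked. The change of the gene in row 14 from E12 to E20 was 2.63 (95% confidence interval 2.15 to 3.11, limma adjusted p = 1.61e-14), and it lay between 1.86 and 3.32 with each reference alone. It rose by 1.12 from E12 to E16 and by 1.51 from E16 to E20 (limma adjusted p = 1.24e-04 and 1.18e-07). The mean relative expression was 1.61 at E20, 2.29 at E24, 2.51 at E28, 0.720 on day 1 after hatching and 1.99 on day 4, values given as a description without a test.

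The gene in row 18 had the next largest rise, and its E12 animals were widely spread. It ran from 0.149 to 2.91 at E12 with a median of 1.08 (n = 19), from 0.685 to 3.73 at E16 with a median of 1.74 (n = 20), and from 0.593 to 8.06 at E20 with a median of 3.39 (n = 19). The stages overlapped, but 14 of the 19 E20 animals lay above the highest E12 animal. The change was 1.86 (95% confidence interval 1.26 to 2.46, limma adjusted p = 2.50e-07), and 1.09 to 2.55 with each reference alone. It rose by 0.81 from E12 to E16 and by 1.05 from E16 to E20 (limma adjusted p = 0.0284 and 0.00184), but the call of single steps depended on the reference. The first step did not pass with row 51, 54 or 55 as the only reference (limma adjusted p = 0.0561, 0.0768 and 0.0875), nor the second with row 54 or 55 (limma adjusted p = 0.372 and 0.0513). The E20 animal without a deposited ratio came to 10.1 from its Ct, above the others. The mean relative expression was 3.91 at E20, 1.31 at E24, 0.699 at E28, 0.365 on day 1 and 0.423 on day 4, so that the highest mean of the 7 stages was at E20 for this gene and at E28 for the gene in row 14.

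The gene in row 46 had the next largest fall by the deposited ratios, after row 28, and its E12 animals were close together. It ran from 6.21 to 13.3 at E12 with a median of 8.74 (n = 19), from 2.46 to 5.03 at E16 with a median of 4.24 (n = 18), where 2 more animals came to 6.73 and 8.08 from their Ct, and from 0.683 to 7.61 at E20 with a median of 2.97 (n = 20). Of the 20 E20 animals, 19 lay below the lowest E12 animal. In E20 replicates 1 to 8 and 17, which had late references, it ran from 0.683 to 3.38. In the other E20 animals it ran from 1.79 to 7.61, a split that was not tested. The change was -1.66 (95% confidence interval -2.02 to -1.31, limma adjusted p = 2.61e-12), and -2.42 to -0.97 with each reference alone. From E12 to E16 it fell by 1.13 and from E16 to E20 by 0.53 (limma adjusted p = 1.34e-06 and 0.00925), and the difference between these steps did not pass (limma adjusted p = 0.15). With row 51, 52 or 53 as the only reference the second step was -0.09, -0.15 or -0.14 and did not pass (limma adjusted p = 0.656, 0.508 and 0.516). With row 54 or 55 it was -1.261 or -1.002 and passed (limma adjusted p = 8.99e-06 and 5.28e-06). The steps differed with row 51 or 52 (limma adjusted p = 0.00361 and 0.0162). With row 53, 54 or 55 their difference did not pass (limma adjusted p = 0.128, 0.82 and 0.586). These fits left out the 2 high E16 values without a deposited ratio. With missing values computed from the Ct and all 5 references, the steps were -1.05 and -0.62. The second step then passed (limma adjusted p = 0.00228), and the difference between the steps did not (limma adjusted p = 0.378). When only animals with a mean reference Ct inside the E12 range were kept, which left 12 at E20, the second step was -0.23 (limma adjusted p = 0.214) and differed from the first (limma adjusted p = 0.00262). The procedure of the methods did not call the E12 to E20 change of this gene (Dunn comparison over all animals, Bonferroni p = 0.144). Its mean relative expression was 1.21 at E24, 0.584 at E28, 0.158 on day 1 and 0.127 on day 4, each mean below the one before.

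**Figure D3:**
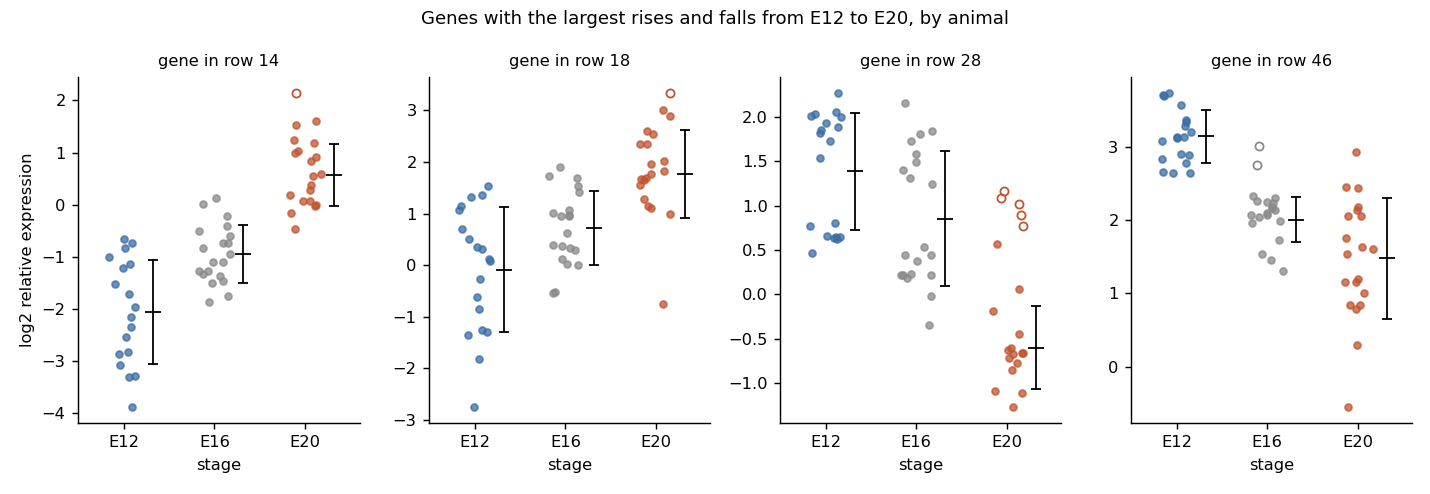
Log2 relative expression by animal at E12, E16 and E20 for the genes with the 2 largest rises (rows 14 and 18) and the 2 largest falls (rows 28 and 46). Filled points are deposited values, open points were computed from a deposited Ct that has no deposited relative expression, and bars are the mean and SD of the filled points. In row 28 the 5 open points at E20 lie above all 15 filled ones.

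The gene in row 28 had the largest fall by the deposited ratios, and 5 of its E20 animals had no deposited relative expression. At E12 it ran from 1.39 to 4.83 with a median of 3.32 (n = 19), at E16 from 0.784 to 4.47 with a median of 1.40 (n = 20), and at E20 from 0.414 to 1.49 with a median of 0.632 over the 15 animals with a value. Of these 15, 14 lay below the lowest E12 animal. The change was -1.99 (95% confidence interval -2.43 to -1.55, limma adjusted p = 1.61e-11), and -2.72 to -1.29 with each reference alone. The other 5 E20 animals had a Ct and no deposited relative expression. Computed from the Ct, they lay between 1.71 and 2.23, above every kept E20 value, and with them the change was -1.59 (limma adjusted p = 2.81e-08). With missing values restored in this way, the gene in row 46 had a larger fall than the gene in row 28, at -1.66 (limma adjusted p = 6.80e-12).

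The spacing of the animals in the gene in row 28 was described with these 5 values included, after the values were seen and without a test, by the widest gap between neighbouring animals, which every set of values has. At E12, 8 animals lay between 0.47 and 0.80 on the log2 scale and 11 between 1.54 and 2.27, with nothing in the gap of 0.73. At E16, 11 animals lay between -0.35 and 0.53 and 9 between 1.25 and 2.16, with a gap of 0.72. At E20, 14 animals lay between -1.27 and 0.06 and 6 between 0.57 and 1.16, with a gap of 0.51. Wider gaps occurred in the gene in row 18, with 0.93 at E12 and 1.74 at E20, and in the gene in row 46, with 0.84 at E20, each below which a single animal lay. Whether the animals of row 28 form separate levels was not tested. Of the 6 animals above the gap at E20, 5 are those without a deposited relative expression. The mean relative expression was 0.606 at E24, 0.472 at E28, 0.789 on day 1 and 1.87 on day 4.

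More genes were called from E16 to E20 than from E12 to E16. From E12 to E16, 8 genes were higher and 8 lower at E16, 16.0% each, with changes between -1.64 and 1.13. From E16 to E20, 11 were higher and 15 lower at E20, 52.0% in all, with changes between -1.46 and 1.51. These steps share the E16 animals. The E20 animals with late references, described below, enter only the second step, and their part in these counts was not tested. Tested directly, the change of 14 genes, 28.0%, differed between the steps (limma contrast, adjusted p under 0.05), and in 12 of the 14 the second step was the larger. The steps of 9 of the 14 went in opposite directions and those of 5 in the same direction. Of the 33 genes called between E12 and E20, 24 had an E16 mean between the means of both ends. The gene in row 28 was among the 14, with a second step of -1.46 against a first of -0.53 (limma adjusted p of the difference = 0.0495). With its 5 E20 values restored the difference was -0.52 (limma adjusted p = 0.416), and with row 51, 52 or 53 as the only reference it did not pass either (limma adjusted p = 0.367, 0.217 and 0.162), while with row 54 or 55 it did (limma adjusted p = 0.00176 and 0.0092). Normalized to row 54 alone, 31 genes differed between the steps, and normalized to row 53 alone, 6.

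**Figure D4:**
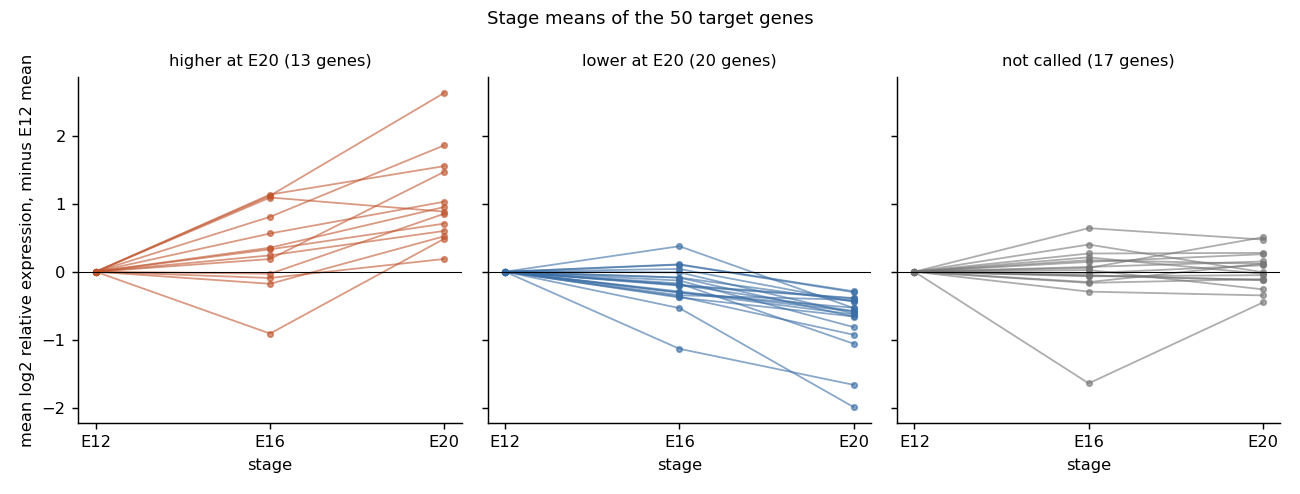
Mean log2 relative expression at E12, E16 and E20 for the 50 target genes, each set to 0 at E12, in panels by the call between E12 and E20. Each line is a gene. The 13 higher genes end between 0.19 and 2.63 and the 20 lower genes between -0.29 and -1.99, and 24 of these 33 have their E16 mean between both ends.

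The animals of E20 were more scattered than those of E12 before normalization. The mean Ct of the 5 references ran from 13.7 to 15.0 over the E12 animals, with a median of 14.1, from 13.9 to 15.2 over the E16 animals, with a median of 14.3, and from 13.7 to 16.4 over the E20 animals, with a median of 14.9. Its SD was 0.33, 0.32 and 0.72 cycles. At E20 the late values were not spread evenly over the sample numbers. In replicates 1 to 8 and 17 the reference in row 53 ran from 15.3 to 17.1 cycles, and in the other E20 animals from 13.2 to 15.4. Row 55 ran from 17.3 to 19.2 in replicates 1 to 8 and 17 and from 16.2 to 17.8 in the others. Row 54 ran from 9.95 to 10.6 and from 9.55 to 10.5. By the depositors' own animal numbers, replicates 1 to 8 and 17 come before all other E20 animals, which the replicate numbers do not show. The E20 means and SDs given here pool both sets. This split was seen in the data, and its part in the changes from E12 to E20 was not tested. The SD of a target gene over animals had a median of 0.47 cycles at E12 and 1.03 at E20, and the Ct spread was wider at E20 in 28 of the 50 genes, 56.0%, and wider at E12 in 1 (permutation test of the absolute deviation from the stage median, adjusted p under 0.05). Only target Ct values with a deposited ratio were used here. All 5 references were more scattered at E20 as well, with SDs 1.46 to 2.05 times those at E12 (same permutation test, adjusted p between 0.0171 and 0.0445). After division by the references, the median SD was 0.35 at E12 and 0.47 at E20 on the log2 scale. It was higher at E20 in 39 genes, but the test was passed by 1 gene wider at E20 and by 1 wider at E12, 2.0% each, with 14 genes at an unadjusted p under 0.05. With missing values computed from the Ct, the test was passed by 0 genes in either direction. When only the animals with a mean reference Ct inside the E12 range were kept, 19 at E12, 19 at E16 and 12 at E20, 14 genes were higher at E20 and 17 lower, against 13 and 20 with all animals.

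**Figure D5:**
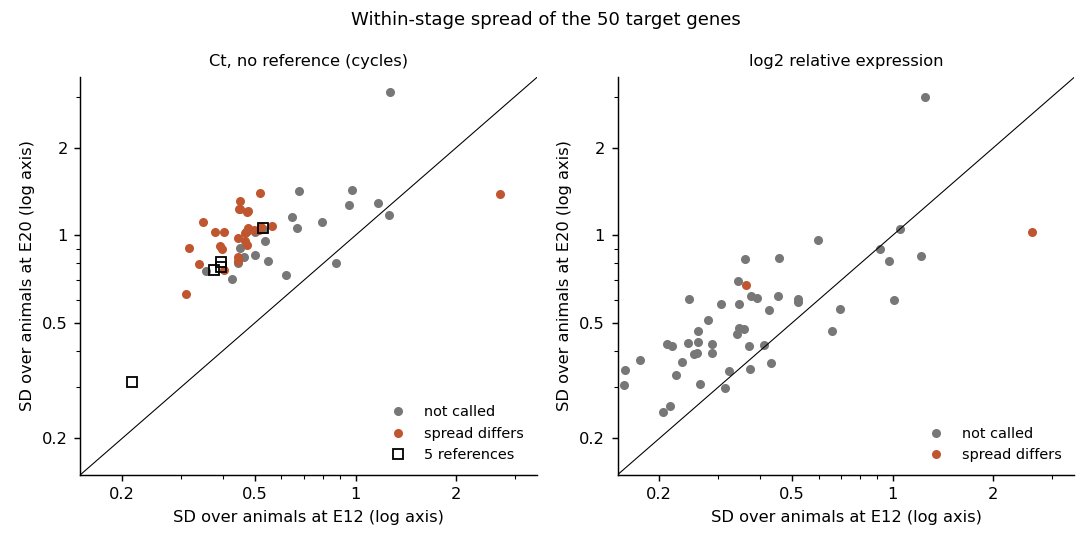
SD over the animals at E12 (x axis) and at E20 (y axis) for each of the 50 target genes, as Ct without a reference in cycles (left) and as log2 relative expression (right), on log axes. The line marks equal SD and squares are the 5 references. For the target genes both panels use only values with a deposited ratio. In the left panel 47 genes lie above the line, with 28 genes called wider at E20 and 1 wider at E12, and in the right panel 39 do, with 1 gene called in each direction.

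A principal component analysis could use only the 23 genes with a value in every animal, which left out 7 of the 8 genes with a called change of at least 1. Within these 23 genes the stages overlapped on the first component, which held 25.0% of the variance, with scores from -1.63 to 1.27 at E12, -1.59 to 1.55 at E16 and -1.57 to 4.55 at E20. At E20 replicates 1 to 8 and 17, with late references, scored from -0.02 to 4.55. The other E20 animals scored from -1.57 to 1.83, and this split was not tested. Each animal was then first set to the median of its 23 genes. The first component, with 21.8% of the variance, had median scores of 0.20 at E12, 0.17 at E16 and 0.89 at E20. The second, with 20.6%, had median scores of -0.99 at E12, 0.15 at E16 and 0.29 at E20. The ranges overlapped on the second component too, from -1.67 to 0.68 at E12 and from -0.69 to 2.14 at E20.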

How the data were processed

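The authors extracted total RNA from frozen liver, measured it by EvaGreen quantitative PCR on Fluidigm arrays and deposited the Ct of 55 rows as read, a score in cycles without normalization, and a linear ratio to 5 references for the 50 target rows, with an efficiency of 2. Per the methods, Ct values with aberrant melting curves had been removed. The ratio was recomputed from the Ct with a largest deviation of 0.0028 on the log2 scale. Of the values of the target genes, 17 at E12, 26 at E16 and 29 at E20 had a Ct but no ratio, and 2, 0 and 3 had no Ct. No pseudocount was added.

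Log2 ratios of the E12, E16 and E20 animals were fitted together with limma 3.58.1 in R 4.3.3, with Benjamini-Hochberg adjustment over 50 genes. This differs from the linear procedure of the methods, which was run beside it, because those tests use 7 stages and linear values. Permutation tests were 2-sided with 100000 resamples (Python 3.11.15, numpy 2.4.6, scipy 1.17.1). The fit was tested on simulated data with independent noise of equal spread at every stage. The simulated data had no shift of the references and no split of the E20 animals, so the effect of these on the calls was not tested. As no table used here pairs rows with genes, the 2 largest called rises and falls were named. The members and rules were chosen with earlier results of these data known. The number of animals limits precision, and Ct gives no depth.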

Additional observations from a re-analysis of the deposited data

Results flagged for a closer look

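The change from E16 to E20 differed from the change from E12 to E16 in 14 of the 50 genes, by the contrast of both steps in the same fit. In the gene in row 28 the second step exceeded the first by -0.92 on the log2 scale, a difference that passed narrowly (limma, Benjamini-Hochberg adjusted p = 0.0495) and did not pass with the 5 unreported values restored (0.416), with the replicate block (0.052), with all 7 stages in the fit (0.119) or with the median of the target genes as reference (0.2). No group was small enough for single animals to be screened as outliers.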

How the results depend on the processing

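The genes in rows 14, 18, 28 and 46 kept their direction and their call in all 20 alternatives of the fit and with each of the 39 E12 and E20 animals left out in turn. The counts turned on the references. With rows 51, 52, 53, 54 and 55 alone, 23, 23, 31, 4 and 6 genes were higher and 9, 6, 3, 33 and 32 lower, with medians of 0.23, 0.28, 0.58, -0.87 and -0.79. Without any reference, 4 were higher and 32 lower, with a median of -0.85. The median was -0.29 without row 53, 0.075 without row 54 and 0.054 without row 55. Between E12 and E16, 8 genes changed with row 54 alone, 25 with row 55 alone, 6 with no reference and 9 with all 7 stages in the fit, against 16. The steps differed in 6, 31, 8 and 7 genes with row 53 alone, row 54 alone, no reference and all 7 stages, against 14. The procedure of the methods called 20, 7 and 29 genes with rows 53, 54 and 55 alone, against 12. With values restored the spread was wider at E20 in 0 genes and wider at E12 in 0 (14 at an unadjusted p under 0.05 in the permutation test). With Ct alone it was wider at E20 in 28. The reference in row 55 changed by -0.071 cycles without the 2 most extreme animals of each stage. With 1 animal left out, 11 to 14 genes were higher, 19 to 22 lower, 14 to 17 changed from E12 to E16, 24 to 28 from E16 to E20, and 13 to 17 differed between the steps, and the median lay between -0.15 and -0.06. The replicate block gave 12 higher and 21 lower. Animals with the same replicate number are different embryos, and the correlation of their deviations had a mean of -0.02 and was over 0.1 in 19 of 58 pairs. The replicate numbers do not follow the depositors' animal numbers across stages. An order or pairing by animal number is therefore not covered by this check or by the replicate block, and was not tested. With the permutation tests in place of limma 12 were higher and 19 lower. The median of the target genes as reference and the restriction to the E12 range of reference Ct were chosen after seeing the data. The cause of these shifts was not tested.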
